A study of Mus musculus with 12 samples.

Results

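The data described here are 4 of the 12 two-colour arrays of a study of mouse liver cell lines, the 2 AML12 arrays labelled as actinomycin D-treated and the 2 AML12 arrays labelled as serum-free control, chosen by their titles. AML12 is a hepatocyte line made from TGF-alpha transgenic mice, although the labels give hepatoma as its source. Cells were maintained in medium with fetal bovine serum and, for AML12, dexamethasone and insulin. Serum and every additive were then removed overnight from all groups. Treated cells next received 10 ug/mL of actinomycin D for 8 h, and controls received no agent. The remaining arrays hold AML12 with 200 ng/mL of ovine prolactin and the same 3 conditions in Hepa 1-6, a mouse hepatoma line. Each group held 2 arrays, which the series design calls biological replicates.

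Actinomycin D inserts into DNA and blocks RNA polymerases, so that transcripts already made decay without being replaced. Transcripts of immediate-early genes, of feedback inhibitors and of many zinc finger genes are known to be short-lived, whereas those of housekeeping proteins and secreted liver proteins are known to last. Acute-phase genes, which hepatocytes switch on in inflammation, are in turn known to depend on transcription through C/EBP, STAT3 and NF-kB factors.

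On every array the sample was measured as a ratio to a common reference RNA pooled from 11 mouse cell lines, and all levels below are log2 ratios to that reference. The same mass of total RNA was labelled for each array, per the labels' protocols, so a gene is higher or lower relative to the rest of the RNA on its array. A loss of messenger RNA shared by all genes could not be measured, and fewer cells and less RNA per cell cannot be told apart. Of 45018 features, 39693 and 39259 held a ratio on the control arrays and 38636 and 37397 on the actinomycin D arrays. Replicates correlated across genes at 0.985 for controls and 0.975 with actinomycin D. Hepatocyte markers were above the reference in controls for 6 of 7 measured, among them Alb at 4.35 and 4.12 and Hnf4a at 3.78 and 3.47. The biliary markers Krt7, at 2.87 and 2.80, and Krt19, at 4.09 and 4.05, were above it too, and Epcam was at -4.92 and -4.75. None of 5 leukocyte and 7 stellate cell or fibroblast markers was above it, and 2 of 5 endothelial markers were.

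The comparison asked which transcripts were higher or lower after 8 h of actinomycin D. Of 16549 genes tested, 4640 rose, which is 28.0% of those tested, and 4223 fell, which is 25.5%, in limma's moderated test at an adjusted p under 0.05. Counts of list members below are to be read against these shares. The median change of all genes was 0.043 on the log2 scale, and 5% of genes lay below -1.25 and 5% above 1.00. By at least 2 log2 units 219 genes were lower and 139 higher, and by at least 4 the order turned, with 12 lower and 24 higher. Centring each array on its median moved the median change by 0.108 and gave 5848 genes higher and 3417 lower, so the near balance of both directions depends on the scaling.

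**Figure D1:**
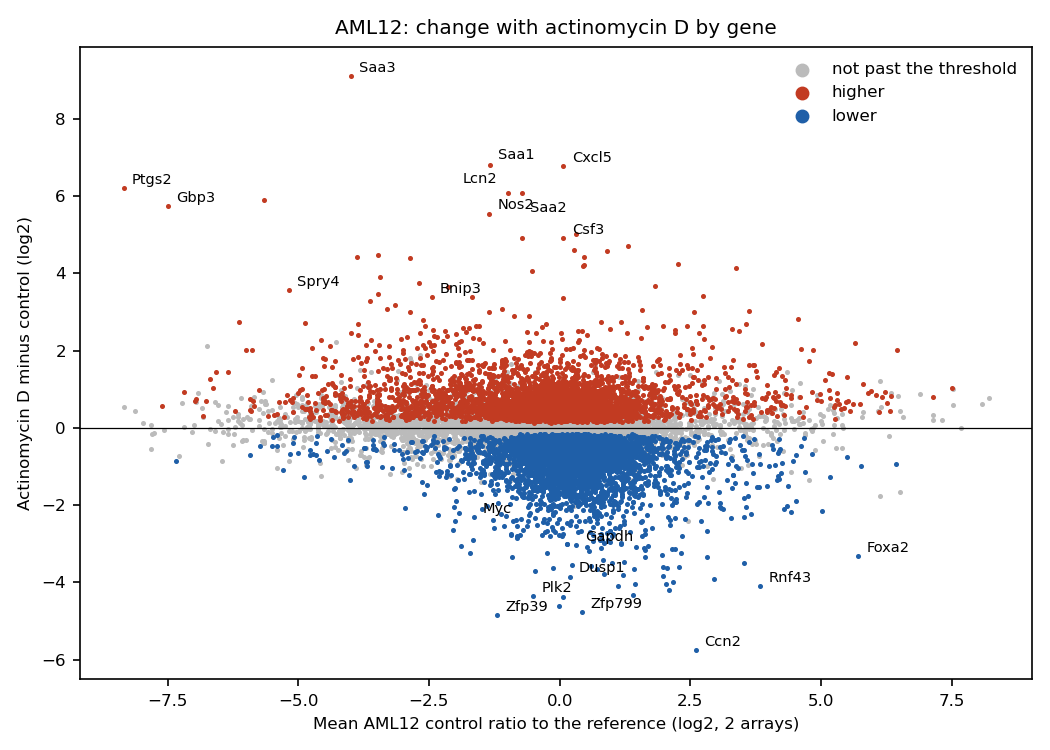
Each point is a gene, placed by its mean AML12 control ratio to the reference (log2, 2 arrays) and by its change with actinomycin D (log2), coloured where it passed limma's threshold. Saa3, at 9.12, lies highest and Ccn2, at -5.76, lowest.

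The serum amyloid A genes, whose products are acute-phase apolipoproteins, and Lcn2, which encodes an iron-sequestering defence protein, held 5 of the 20 largest rises. The sequences shown first are the promoters of the 4 genes of the acute-phase list with the largest rises. They come from RefSeq on GRCm38.p6 and run 5′ to 3′ on the gene's strand, from 250 bases before the start to 50 after it. Capitals mark each match to TTGCNNAA, a short form of the C/EBP site, searched on both strands (in Saa3 the match reads on the other strand). Saa3 is at chr7:46715627-46715926 on the minus strand, with its match beginning at -99 from the start. Saa1 is at chr7:46742931-46743230 on the minus strand, with its match at -182. Saa2 is at chr7:46751583-46751882 on the plus strand, with its match at -183. Lcn2 is at chr2:32387690-32387989 on the minus strand, with its match at -216.
Saa3: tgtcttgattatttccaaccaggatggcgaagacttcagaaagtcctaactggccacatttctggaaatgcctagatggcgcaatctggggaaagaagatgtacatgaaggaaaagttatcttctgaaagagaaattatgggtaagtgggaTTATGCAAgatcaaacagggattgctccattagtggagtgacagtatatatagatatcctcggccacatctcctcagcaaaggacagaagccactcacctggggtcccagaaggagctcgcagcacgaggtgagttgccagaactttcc
Saa1: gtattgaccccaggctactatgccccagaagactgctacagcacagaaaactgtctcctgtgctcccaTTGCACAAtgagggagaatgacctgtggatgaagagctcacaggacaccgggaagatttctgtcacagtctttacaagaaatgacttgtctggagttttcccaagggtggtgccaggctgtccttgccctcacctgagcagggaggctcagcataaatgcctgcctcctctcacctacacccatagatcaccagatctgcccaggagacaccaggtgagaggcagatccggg
Saa2: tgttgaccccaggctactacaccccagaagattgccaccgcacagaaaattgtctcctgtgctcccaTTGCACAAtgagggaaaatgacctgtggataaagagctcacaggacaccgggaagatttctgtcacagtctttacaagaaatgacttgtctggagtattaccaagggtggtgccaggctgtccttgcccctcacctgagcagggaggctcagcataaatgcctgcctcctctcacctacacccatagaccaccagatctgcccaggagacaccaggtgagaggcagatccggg
Lcn2: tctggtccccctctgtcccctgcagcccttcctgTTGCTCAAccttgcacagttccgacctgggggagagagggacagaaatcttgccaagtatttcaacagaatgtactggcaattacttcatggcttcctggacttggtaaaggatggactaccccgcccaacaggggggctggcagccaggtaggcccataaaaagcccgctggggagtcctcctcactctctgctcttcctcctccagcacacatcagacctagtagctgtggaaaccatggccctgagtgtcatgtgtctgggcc

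Among acute-phase genes that rose and had a promoter in the table, 9 of 13 held the C/EBP match, against 2 of 5 members that did not rise. Of all genes tested that had a promoter there, 10.8% held it. In the list of inflammatory enzymes and cytokines the order was the other way, with 4 of 13 that rose and 4 of 6 that did not, and in chemokines it was 1 of 11 and 0 of 10. The kappa-B motif was searched on both strands in its usual 10-letter form and matched 11.6% of genes tested. Of acute-phase genes it matched 0 of 13 that rose and 0 of 5 that did not. Among inflammatory enzymes and cytokines it matched 3 of 13 that rose and 1 of 6 that did not. Both motifs were chosen after the expression results were known, and a match in these letters is a description of the sequence. Acute-phase genes are known to depend on C/EBP, and related members such as Saa1 and Saa2 share promoter sequence. The counts are therefore no test of the rise.

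Saa3 was at -3.89 and -4.09 in controls and at 5.25 and 5.02 with actinomycin D. Both treated arrays lay far above both controls, and the prolactin arrays, at -4.05 and -3.99, lay beside the controls. The rise was 9.12 ± 0.11 (SE, limma adjusted p = 6.8e-09), a 556-fold higher ratio. Control ratios so far below the reference can lie near the limit of detection, so the size of this rise is uncertain. Saa1 was at -1.38 and -1.30 in controls and 5.51 and 5.41 with actinomycin D, a rise of 6.81 ± 0.07 (adjusted p = 3.6e-09). That mean covers 2 features that rose by 8.06 and 5.56, so its size describes neither feature. Saa2 went from -0.77 and -0.67 to 5.38 and 5.35, a rise of 6.08 ± 0.18. Their sequences are very much alike, as the printed promoters also show, so a probe for either can bind both transcripts. Lcn2 was at -1.11 and -0.84 in controls and 5.18 and 5.02 with actinomycin D, a rise of 6.08 ± 0.12 (adjusted p = 8.4e-08) with no overlap between groups. Saa4, a constitutively made serum amyloid A, rose by 4.43 ± 0.35 from 0.66 and 0.27. Of 22 acute-phase genes measured, 17 rose and 0 fell, with a median change of 0.95 against 0.043 for all genes. The 5 that did not pass were Serpina3n, Il1rn, Crp, Fgb and Fga.

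Chemokines and inflammatory enzymes rose alongside. Cxcl5, a chemokine that draws neutrophils, was at 0.03 and 0.11 in controls and at 6.94 and 6.74 with actinomycin D. The groups lay far apart, and the rise was 6.77 ± 0.13 (limma adjusted p = 9e-08). Cxcl2 and Cxcl3, neutrophil chemokines of the same family, rose by 4.20 ± 0.26 and 4.15 ± 0.29, and Cxcl16, a membrane-bound chemokine, by 2.74 ± 0.13. In all, 16 of 30 chemokine genes rose and 1 fell, with a median of 0.54. The 1 that fell was the interferon-induced chemokine Cxcl10, at -0.64 and -0.91 in controls and -1.74 on both treated arrays, a change of -0.96 ± 0.23 whose call was lost without the first control. The kappa-B motif matched the promoters of 4 of 11 chemokine genes that rose and 3 of 10 that did not.

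Nos2, which encodes inducible nitric oxide synthase, was at -1.59 and -1.12 in controls and 4.25 and 4.15 with actinomycin D. It rose by 5.55 ± 0.15 (limma adjusted p = 2e-07), in the same direction on all 10 of its features. Csf3, which encodes granulocyte colony-stimulating factor, was at -0.30 and 0.45 and then at 5.02 and 4.98, a rise of 4.92 ± 0.23. Ptgs2, which encodes cyclooxygenase 2, was at -8.30 and -8.37 in controls and at -1.92 and -2.34 with actinomycin D. Its rise was 6.20 ± 0.17 and had the same sign on all 11 features, but a ratio so far below the reference can lie at the limit of detection, so its size is uncertain. Il6, a cytokine that drives the acute-phase response, rose by 2.75 ± 0.22 from -6.06 and -6.22, where its size is uncertain too. Of 25 inflammatory enzyme and cytokine genes, 16 rose and 0 fell, with a median of 0.59.

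The feedback inhibitors of NF-kB did not move as a group. Nfkbia, which encodes the inhibitor that holds NF-kB in the cytoplasm, was at -0.71 and -0.70 in controls and -3.29 and -3.42 with actinomycin D, and it fell by 2.64 on the log2 scale (SE 0.14, limma adjusted p = 3.2e-06). Nfkbiz, a nuclear member of that family, changed by -2.10 ± 0.14, and Tnfaip3, a ubiquitin-editing enzyme that ends NF-kB signalling, by -1.89 ± 0.12. Zc3h12a, an endonuclease that cuts cytokine messengers, rose by 2.24 ± 0.15, and the signalling adaptor Traf1 by 1.31. Of 15 members 6 rose and 6 fell. Of 3 NF-kB subunit genes measured, Relb and Nfkb2 passed as higher, at 0.38 and 0.29, and both lost the call when the second control or either actinomycin D array was left out.

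**Figure D2:**
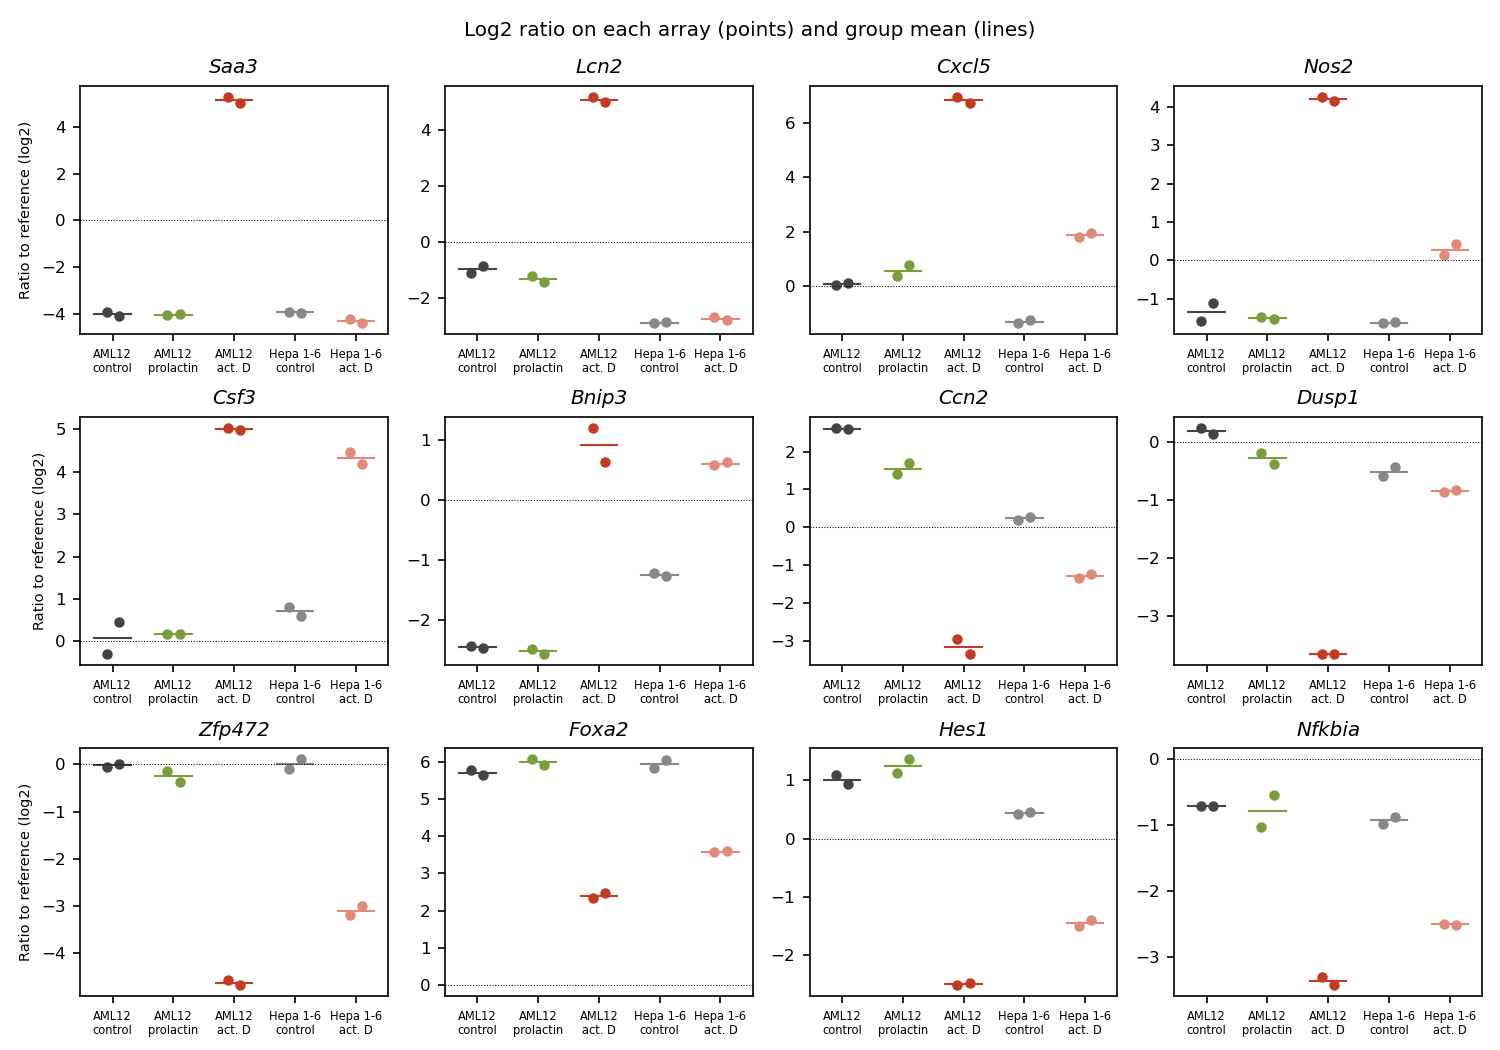
Log2 ratio to the reference on each array (points) and group mean (lines) for 12 genes in 5 groups, AML12 control, prolactin and actinomycin D and Hepa 1-6 control and actinomycin D, with a vertical scale per panel. Saa3 and Lcn2 stand above all other groups only on the AML12 actinomycin D arrays, and Nfkbia lies below its control in both lines.

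The other genes among the 20 largest rises ranged from 4.25 to 5.89. Mgarp, a mitochondrial protein gene, rose from -5.41 and -5.88 to 0.51 and -0.03. Gbp3, a guanylate-binding protein gene, rose from -7.44 and -7.54 to -1.85 and -1.62. Both started near the lowest ratios, so the sizes of 5.89 and 5.75 are uncertain. Wfdc18, a whey acidic protein domain gene, rose by 5.02 ± 0.18, Pglyrp1, which encodes a peptidoglycan-binding defence protein, by 4.92 ± 0.15 and Mmp7, the protease matrilysin, by 4.60 ± 0.30. Ms4a6b, a membrane protein gene, rose by 4.71 ± 0.28, Prnd, which encodes the prion-like protein doppel, by 4.59 ± 0.30 and the pantetheinase gene Vnn3 by 4.25 ± 0.33. Itln1, a lectin gene, Ppm1n, a phosphatase gene, and Gpr84, a receptor for medium-chain fatty acids, rose by 4.48 ± 0.55, 4.43 ± 0.76 and 4.39 ± 0.48. In 7 of the 20 the control mean lay below -2.

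Some markers listed for blood cells rose, and more of them did not pass. Of 20 myeloid and lymphoid markers measured of 24 listed, 9 rose, 0 fell and 11 did not pass, with a median of 0.27. The share that rose was 45.0%, against 28.0% of all genes. Their summed linear ratio was 9.92 and 11.5 in controls and 21.5 and 18.5 with actinomycin D. The calprotectin genes S100a9 and S100a8 rose by 2.02 and 2.01, and the endotoxin co-receptor gene Cd14 by 1.34. The defining leukocyte marker Ptprc was at -5.47 and -5.54 in controls and -5.70 and -5.57 with actinomycin D. The macrophage markers Adgre1 and Lyz2 did not pass either, with changes of -0.19 and 0.00. The part of such cells in the inflammatory rises was not tested. The list was added after the values had been seen.

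Hypoxia-inducible and glycolysis genes formed the list with the highest median. Bnip3, a mitophagy receptor gene induced by HIF-1, was at -2.43 and -2.47 in controls and 1.20 and 0.64 with actinomycin D. Both treated arrays lay above both controls, and the rise was 3.38 ± 0.15 (limma adjusted p = 1.5e-06). Egln3, which encodes an oxygen-sensing prolyl hydroxylase, rose by 2.49 ± 0.14, Pdk1, which diverts pyruvate from the mitochondrion, by 2.44 ± 0.12 and the hexokinase gene Hk2 by 2.24 ± 0.12. Of 35 genes 30 rose, with a median of 1.14, and Slc2a3, Pkm and Car9 did not pass. The 2 that fell were Ddit4, a stress-induced inhibitor of mTOR, and Gapdh, the glycolytic dehydrogenase often used as a reference gene. Gapdh was at 0.20 and 0.45 in controls and -2.53 and -2.91 with actinomycin D, on a single feature, a change of -3.04 ± 0.20 (adjusted p = 8.5e-06).

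Interferon-stimulated and antigen processing genes were divided. Of 42 measured, 25 rose and 8 fell, with a median of 0.46. The guanylate-binding protein genes Gbp6, Gbp4 and Gbp2 rose by 3.07 ± 0.20, 2.37 ± 0.12 and 2.06 ± 0.10. The transcription factor gene Irf1 was at 0.04 and -0.02 in controls and -2.09 and -1.90 with actinomycin D, a change of -2.00 ± 0.15, and Irgm1 and Mx2, which encode interferon-induced GTPases, changed by -1.43 and -1.38.

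Among genes that fell, Ccn2, which encodes a matricellular growth factor and is a target of YAP, was at 2.62 and 2.59 in controls and -2.96 and -3.36 with actinomycin D. Prolactin arrays were at 1.41 and 1.70, between the 2 groups. The change was -5.76 ± 0.14 (limma adjusted p = 1.4e-07), the largest fall of a named gene. Other YAP targets were lower as well, with Nuak2, a stress-activated kinase gene, at -3.84 ± 0.12 and Amotl2, which restrains YAP, at -2.54 ± 0.09. Of 23 YAP targets 11 fell and 6 rose, and Tgfb2 rose by 1.62 ± 0.08.

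Zinc finger genes, most of which encode DNA-binding repressors, formed the longest list examined. Of the 20 largest falls 9 had a Zfp or Zscan symbol. Zfp472 was at -0.05 and 0.02 in controls and -4.58 and -4.68 with actinomycin D, lower on all 3 of its features, a change of -4.62 ± 0.11 (limma adjusted p = 1.4e-07). Zfp282 was at 1.35 and 1.47 and then at -3.10 and -2.71. Zfp799 was at 0.42 and 0.43 and then at -4.25 and -4.42, and in all 3 genes the groups lay more than 4 log2 units apart. Treated ratios near or below -4, here and in other paragraphs, can lie near the limit of detection, so the sizes of such falls are uncertain. Of 326 genes with Zfp, Zscan or Zkscan symbols 240 fell and 16 rose, which is 73.6% lower against 25.5% of all genes, with a median of -0.83. Of these, 54 fell by at least 2 log2 units. The count of 16 became 10 without the second control. Members were taken by symbol, and the list was added after the values had been seen.

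**Figure D3:**
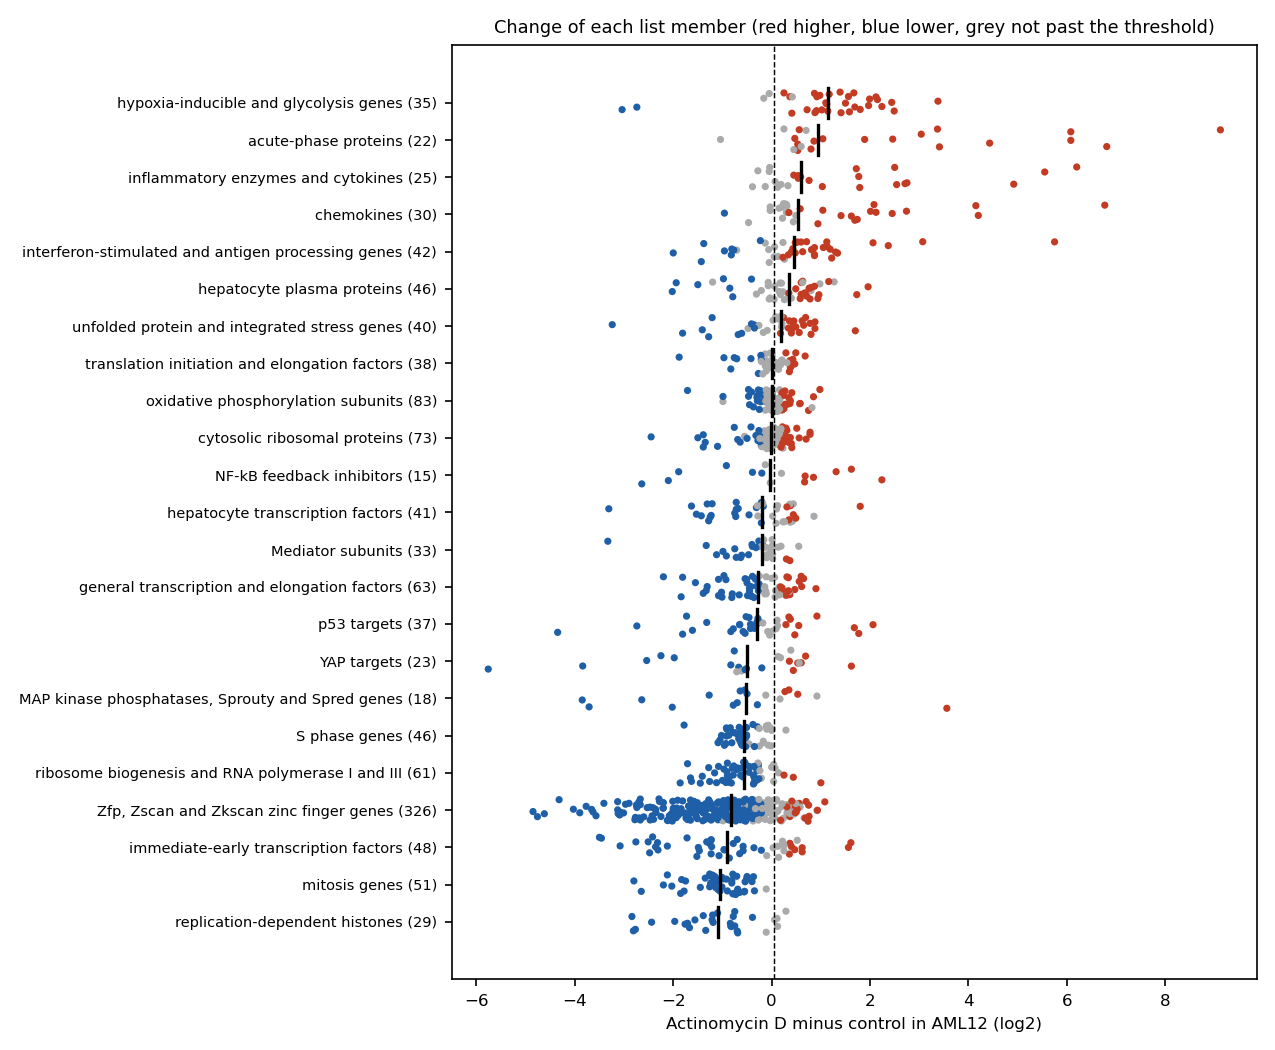
Change with actinomycin D in AML12 (log2) of every measured member of 23 gene lists, red where higher, blue where lower and grey where the gene did not pass limma's threshold, with list sizes in brackets. Black bars mark list medians, from 1.14 for hypoxia-inducible and glycolysis genes to -1.10 for histones, and the dashed line marks the median of all genes.

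Immediate-early transcription factor genes mostly fell. Hes1, a repressor under Notch control, was at 1.09 and 0.93 in controls and -2.51 and -2.47 with actinomycin D, a change of -3.50 ± 0.10 (limma adjusted p = 2e-07). Mycn changed by -3.46 ± 0.22, a call lost with the feature of highest ratio alone. Sertad1, a cell cycle coregulator gene, changed by -3.08 ± 0.08 and the TGF-beta-induced gene Klf10 by -2.76 ± 0.07. Myc, at -1.63 on both controls, was at -3.93 and -3.95 with actinomycin D. Of 48 such genes 32 fell and 8 rose, with a median of -0.91. The small Maf gene Maff rose by 1.56 ± 0.09 and Egr2 by 1.61 ± 0.11, the latter from -4.55 and -4.47.

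Most inhibitors of MAP kinase and growth factor signalling fell. Dusp1, a phosphatase that inactivates MAP kinases, was at 0.24 and 0.15 in controls and -3.65 on both treated arrays, a change of -3.85 ± 0.09 (limma adjusted p = 1e-07). Errfi1, which encodes an inhibitor of the EGF receptor, changed by -3.71 ± 0.11 and the ERK phosphatase gene Dusp6 by -2.64 ± 0.09. Spry4, a Sprouty inhibitor of receptor tyrosine kinases, went the other way, from -5.38 and -4.98 to -2.00 and -1.25, a rise of 3.56 ± 0.29 whose size is uncertain at so low a control ratio. Of 18 members 11 fell and 4 rose. Rnf43, a ubiquitin ligase that removes Wnt receptors, was at 3.83 and 3.85 in controls and -0.24 and -0.29 with actinomycin D, a change of -4.10 ± 0.22. Of 24 Wnt feedback genes 8 fell, which is 33.3% against 25.5% of all genes, and 3 rose, which is 12.5% against 28.0%. Bambi, a decoy receptor for TGF-beta and BMP ligands, changed by -3.50 ± 0.11. Of 21 members of its list 7 were lower and 7 higher, 33.3% each, near the shares of all genes.

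The largest falls further included Plk2, a stress-induced kinase gene, from -0.46 and -0.57 to -4.88 and -4.85, a change of -4.35 ± 0.13 (limma adjusted p = 2.6e-07). Rasl11b, a small GTPase gene, changed by -4.39 ± 0.28, Fam222a by -4.21 ± 0.25 and Wdr5b, a WD-repeat gene, by -4.10 ± 0.23. Dyrk3, a kinase gene, changed by -3.80 ± 0.13 and Rasgef1b, a Ras exchange factor gene, by -3.66 ± 0.10. All 20 of the largest falls were also lower in Hepa 1-6 with actinomycin D.

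Of 51 mitosis genes 50 fell and 0 rose, with a median of -1.05, and Bub1 did not pass at -0.11. Plk1, the kinase that drives mitotic entry, was at 0.38 and 0.50 in controls and -1.78 and -1.58 with actinomycin D, a change of -2.12 ± 0.09 (limma adjusted p = 1.1e-06). Ccnf, a cyclin of the ubiquitin system, changed by -2.80 ± 0.13 and Wee1, which restrains mitotic entry, by -2.65 ± 0.19. Of 46 S phase genes 33 fell and 0 rose, with a median of -0.56 and Dbf4, the activator of the replication kinase Cdc7, lowest at -1.78 ± 0.14. Of 29 histone genes 24 fell and 0 rose, with a median of -1.10, among them H2ac15 at -2.84 ± 0.16 and the linker histone gene H1f5 at -2.81 ± 0.14. Histone genes have near-identical copies, so probes may not separate them.

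Genes of the transcription and ribosome-making machinery were lower more often than higher. Of 61 ribosome biogenesis and RNA polymerase I and III genes 50 fell and 3 rose, with a median of -0.57. Nop56, a core protein of the box C/D particles that modify ribosomal RNA, was at -0.21 and -0.17 in controls and -2.11 and -1.99 with actinomycin D, a change of -1.86 ± 0.08 (limma adjusted p = 1.2e-06). Nop2, a ribosomal RNA methyltransferase gene, changed by -1.71 ± 0.09, and the 3 that rose were Polr3gl, Polr1d and Gnl3l, the last with a call lost under 5 alternatives, leaving out the first control among them. Of 63 general transcription and elongation factor genes 34 fell and 15 rose. Ccnt1, the cyclin of the elongation factor P-TEFb, changed by -2.20 ± 0.19, Cdk12, a kinase of the polymerase tail, by -1.81 ± 0.07 and the TATA-binding protein gene Tbp by -1.55 ± 0.13. Of 33 Mediator genes 16 fell and 2 rose, with Med26 lowest, from -0.84 and -0.97 to -4.29 and -4.19. Of 13 RNA polymerase II subunit genes 8 fell and 1 rose, by -0.41 to -0.17 for the falls, and 4 fell after median centring. Among 60 RNA decay factor genes 32 fell and 8 rose, with Edc3, a decapping enhancer gene, at -2.12 ± 0.19 and Btg1, which recruits a deadenylase, at -1.52 ± 0.10.

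Death and stress genes were mixed. Of 37 p53 targets 20 fell and 9 rose. The death receptor gene Fas was at 0.77 and 0.65 in controls and 2.82 and 2.72 with actinomycin D, a rise of 2.06 ± 0.09 (limma adjusted p = 1e-06), and Pmaip1, a pro-death BCL2 relative, rose by 1.68. Mcl1, a short-lived survival protein of the same family, was at -0.81 and -0.85 and then at -3.21 and -3.24, a change of -2.39 ± 0.08. Other members went the opposite way. Bbc3, another pro-death BCL2 relative and p53 target, changed by -1.73, and the survival gene Bcl2l2 rose by 0.60. The p53 targets Sesn2 and Ppm1d changed by -1.81 and -1.61. Of 27 BCL2 family and death genes 10 fell, which is 37.0% against 25.5% of all genes, and 8 rose, which is 29.6% against 28.0%. Of 40 unfolded protein and integrated stress genes 18 rose and 10 fell, with Vldlr, a lipoprotein receptor gene, at 1.70 ± 0.12 and Chac1, a glutathione-degrading enzyme gene, at -3.24 ± 0.10. Of 16 heat shock genes 9 fell and 3 rose.

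Foxa2, a pioneer factor of liver genes, was at 5.77 and 5.64 in controls and 2.34 and 2.46 with actinomycin D, a change of -3.31 ± 0.10 (limma adjusted p = 2.7e-07). Gata4, Klf15 and Foxa1, further liver factors, changed by -1.63, -1.53 and -1.43. Of 41 hepatocyte transcription factor genes 19 fell and 6 rose, with a median of -0.19. Of 46 plasma protein genes 18 rose and 7 fell, with a median of 0.35 that became 0.02 after quantile normalization. Serping1, an inhibitor of complement, rose by 1.96 ± 0.34 and prothrombin, F2, by 1.73 ± 0.18. Serpinf2, which encodes the plasmin inhibitor, was at 4.45 and 4.25 in controls and 2.45 and 2.20 with actinomycin D, a change of -2.02 ± 0.16, and Ahsg, which encodes fetuin-A, changed by -1.94 ± 0.25.

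Lists of housekeeping genes had medians near that of all genes. Of 73 cytosolic ribosomal protein genes 18 rose and 18 fell, with a median of -0.02, and of 83 oxidative phosphorylation subunit genes 21 rose and 18 fell, with a median of 0.00. After median centring 32 of the latter rose and 9 fell, and 8 rose without the second control and 13 without the first actinomycin D array. Of 38 translation factor genes 9 rose and 9 fell, of 37 proteasome subunit genes 8 rose and 17 fell, and of 39 splicing factor genes 11 rose and 15 fell. These shares were close to the 28.0% and 25.5% of all genes, except for falls of splicing factor genes, at 38.5%, and of proteasome genes, at 45.9%, which became 11 genes after median centring. Of 35 cholesterol and fatty acid synthesis genes 10 rose and 10 fell, and 6 rose without the first actinomycin D array. The remaining lists moved less clearly, with 9 of 18 aminoacyl-tRNA synthetase genes lower and 1 higher, 7 of 22 clock genes lower and 3 higher, and 4 of 9 EGF family ligands lower and 2 higher.

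Within these lists single genes fell far, and there the features of a gene disagreed. Rpl9, which encodes a large-subunit ribosomal protein, was at -0.11 and 0.00 in controls and -2.48 and -2.52 with actinomycin D, but its change of -2.45 averaged a feature at -4.68 and a feature at -0.22. Rpl32, Rps13, Rpl11, Rpl13 and Rps12 likewise had 1 feature lower by at least 1 log2 unit, from -3.48 to -2.24, beside at least 1 other feature between -0.28 and 0.09. Ndufv2, a complex I subunit gene, held features at -3.65 and 0.22, the translation factor gene Eif3d at -3.35 and -0.40, and the proteasome gene Psmd4 at -3.23 and 0.14. The mean per symbol in such genes describes neither feature. These genes were singled out after their values were seen, as the list members lower by at least 1 log2 unit. Across the table, 4120 genes that passed had several features, and in 3296 of them all features moved in the called direction.

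Features that held a ratio on both controls and none on either actinomycin D array numbered 846, which is 2.19% of the 38606 with a ratio on both controls. Prolactin gave 157 by the same count and Hepa 1-6 with actinomycin D 381 of 38751. The reverse change was seen for 92 of 4672 features, which is 1.97%, against 217 for prolactin. The lost features did not have low ratios, with a median control ratio of 0.32 against 0.11 for all features with a ratio, and 37 lay above 2. A ratio to the reference does not give the strength of the signal, so these features may still have been weak on the controls. Of the 846, 493 held a ratio on both prolactin arrays and 101 on neither. On Hepa 1-6, 449 held a ratio on both controls and 119 of those had none on both actinomycin D arrays. A ratio can be missing for any reason that the array software gives, and a missing ratio gives no size of change.

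The lost features with 1 gene symbol and the highest control ratios were led by Smlr1, a small leucine-rich protein gene, at 3.75 and 3.99. Dapk1, which encodes a death-associated kinase, was at 3.89 and 3.45, and Klra8, a lectin-like receptor gene of natural killer cells, at 3.65 and 3.55. Cyp3a44, a cytochrome P450 gene, was at 3.82 and 3.07, and Fbxl21, which encodes a ubiquitin ligase subunit that acts on clock proteins, at 3.16 and 2.97. Kansl1l, Lmo7, Zfp618, Cpn2 and Cspp1 followed, with mean control ratios from 3.02 down to 2.21. Other features of the same genes varied in direction. They fell for Cyp3a44, at -2.38, Kansl1l, at -0.38, and Cspp1, at -0.47, and rose for Zfp618, at 0.52. For Dapk1, Fbxl21 and Lmo7 they did not pass, at 0.37, 0.32 and 0.07. Of 204 genes that had both a lost feature and another feature tested, 27.5% fell and 24.0% rose in limma, near the background of all genes. Of the gained features, Steap4, a metalloreductase gene, was at 4.22 and 4.25 with actinomycin D and had no ratio on either control. Arg2, which encodes mitochondrial arginase, was at 3.29 and 3.09 and likewise had none.

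**Figure D4:**
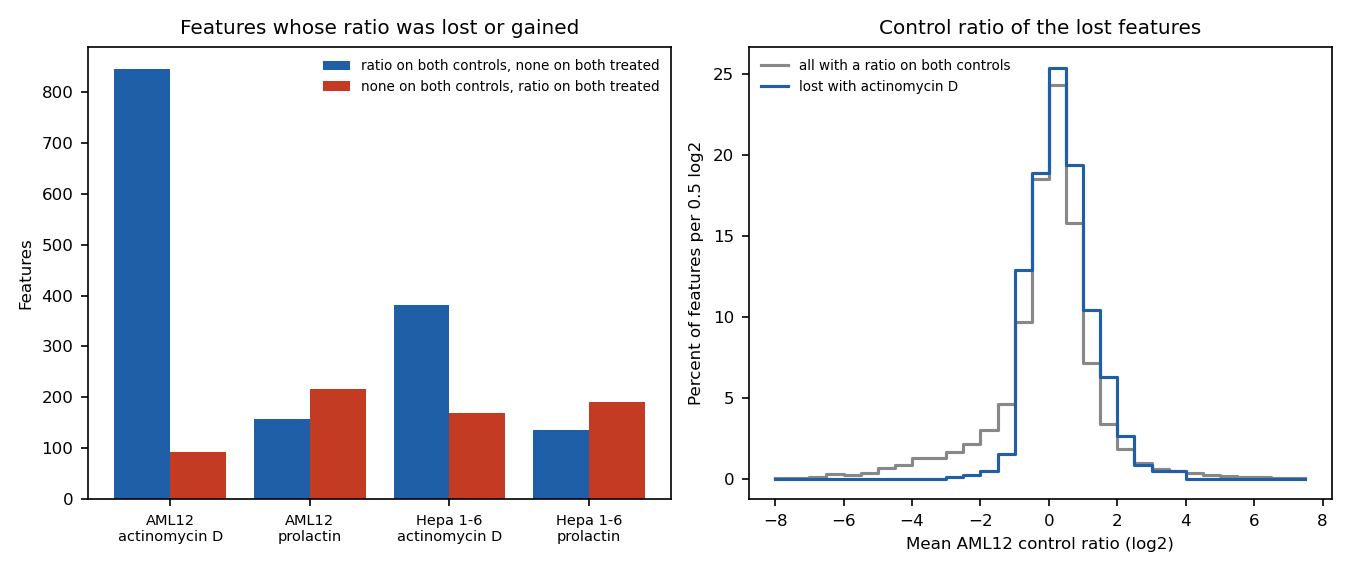
Left, numbers of features that lost or gained a ratio in each treated group against the controls of its line. Right, mean AML12 control ratio (log2) of the 846 lost features (blue) and of all features with a ratio on both controls (grey), as percent per bin of 0.5 log2 units.

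The response of AML12 was set against that of Hepa 1-6 by testing the difference, Hepa 1-6 minus AML12, in the same model. It passed for 4972 genes, which is 30.0%. Genes are not independent replicates, and across them the changes of both lines correlated at r = 0.559, and 5192 genes passed in both lines in the same direction. The inflammatory rises of AML12 were among the largest differences. The difference was -9.50 ± 0.16 for Saa3 (limma adjusted p = 7.4e-08), which changed by -0.38 in Hepa 1-6, and -5.94 ± 0.16 for Lcn2, which did not pass there at 0.14. Of the 20 largest AML12 rises 19 differed and 9 also rose in Hepa 1-6, and of the 20 largest falls 18 differed. These genes were picked by their AML12 change, which is part of the tested difference, so these counts are no separate evidence. Prnd, at 4.59 and 3.47, was the rise that did not pass as different. Cxcl2 rose alike in size, by 4.20 and 4.09, with a difference of -0.11 (adjusted p = 0.85).

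Of the 17 acute-phase genes that rose in AML12, 11 responded lower in Hepa 1-6 by the test of the difference. So did 10 of the 16 chemokine genes that rose, while 2, Cxcl1 and Ccl5, responded higher there. Those 2 changed by 0.94 and 2.12 in AML12 and by 3.97 and 4.05 in Hepa 1-6. Chemokine genes that did not rise in AML12 are outside these counts. Among them Ccl2, Ccl9 and Cxcl10 responded higher in Hepa 1-6, with changes there of 2.58, 0.88 and 1.53. Cxcl12 and Cxcl15 responded lower, with changes there of -0.55 and -1.35. Of all 4640 genes that rose in AML12, 1361 responded lower in Hepa 1-6. Of 51 mitosis genes, 38 had a higher response in Hepa 1-6, where 23 fell, and the median was -0.24 there. Of all 4223 genes that fell in AML12, 1715 responded higher in Hepa 1-6. Histones had medians of -1.10 and -1.12 in the 2 lines. Zinc finger genes had a median of -0.36 in Hepa 1-6, and 161 of the 240 that fell in AML12 fell there too. Of all 8863 genes that passed in AML12 in either direction, 5192 passed in Hepa 1-6 in the same direction. Ccn2 differed by 4.23 ± 0.20 and Plk2 by 3.77 ± 0.18, since both fell less in Hepa 1-6. Hsd3b4, a steroid dehydrogenase gene, and Ivl, which encodes the cornified envelope protein involucrin, changed by -2.19 and -2.24 in AML12 and by 1.58 and 1.33 in Hepa 1-6. Rnf43 and Myc, at -4.21 and -2.46 in Hepa 1-6, did not pass as different (adjusted p = 0.82 and 0.46).

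**Figure D5:**
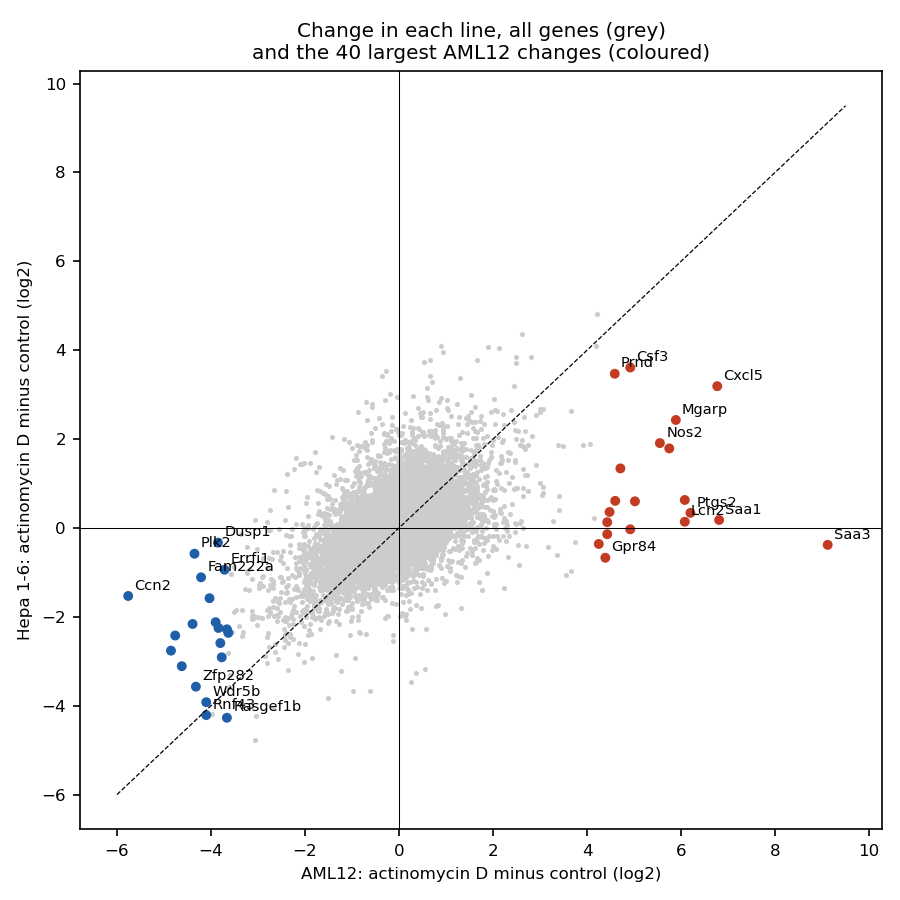
Change with actinomycin D in AML12 (horizontal, log2) against Hepa 1-6 (vertical, log2) for all 16549 genes (grey) and for the 20 largest rises (red) and 20 largest falls (blue) in AML12. Saa3 lies far from the dashed line of equal change, whereas Rnf43 lies near it.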

How the data were processed

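Arrays were two-colour Agilent mouse arrays with the sample in Cy5 and the reference RNA in Cy3 on every array, per the labels. The authors deposited 45018 log10 ratios per array, sample over reference, already normalized. Agilent Feature Extraction is the tool that the submitters' processing notes name. Its version, its settings and the logarithm's base were not given in the sources used here. Base 10, that software's convention, was assumed, and with another base all log2 values would scale together. Exact zeros, 12.7% of values, were taken as no ratio. Values were multiplied by 3.32 to give log2 ratios and not rescaled. No background or saturation marks were used, and the number of arrays limits the precision.

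Features with a ratio on all 12 arrays (35664, of which 28519 carried 1 symbol) were averaged per symbol, which gave 16549 genes. They were tested with limma 3.58.1 in R 4.3.3 on all 12 arrays with a mean per group (6 residual degrees of freedom, prior 1.84), two-sided, with Benjamini-Hochberg adjustment over all genes and a threshold of 0.05. An exact permutation test of 2 against 2 arrays cannot go below 0.333. On simulated data for the AML12 comparison, with 16549 genes, 74% of 100 genes changed by 1 log2 unit and 98% of 100 changed by 2 were recovered. There 9 unchanged genes were called. Far fewer genes were changed in the simulation than passed in the real comparison, so these rates do not carry over to it. Tables and figures used Python 3.11.15 with pandas 2.3.3 and matplotlib 3.10.9.

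The members and gene lists were chosen with earlier results of these data known. The zinc finger list, by symbol, and the myeloid and lymphoid list were added after the values were seen, as were both promoter motifs. Genes named were the 20 largest rises and falls beyond both controls on both treated arrays, without predicted gene models; up to 4 members of each list per direction; the 5 largest line differences each way; the 10 lost features with the highest control ratio; and Myc. That rule makes neither the separation of the 20 largest nor their count of line differences separate evidence. Groups of 5 or fewer members were named after their values were seen.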

Additional observations from a re-analysis of the deposited data

Results flagged for a closer look

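Several of the largest AML12 changes differed between the lines by limma's test of the difference in response (Hepa 1-6 minus AML12, log2, adjusted p under 0.05). A negative value means a lower response in Hepa 1-6. The genes were picked by the size of their AML12 change or of the difference itself, so these values are no separate evidence. Among inflammatory genes, the difference was -9.50 for Saa3, -6.63 for Saa1, -5.45 for Saa2, -5.94 for Lcn2, -5.87 for Ptgs2, -3.58 for Cxcl5 and -3.64 for Nos2. It was -3.96 for Gbp3, -3.46 for Mgarp and -4.42 for Wfdc18. Saa3, Gbp3, Mgarp and Ptgs2 had control ratios at which the size of a rise is uncertain. Among genes that fell in AML12, the difference was 4.23 for Ccn2, 3.77 for Plk2, 3.09 for Fam222a and 2.23 for Rasl11b. For zinc finger genes it was 2.09 for Zfp39, 2.34 for Zfp799, 1.51 for Zfp472 and 0.75 for Zfp282. Plk2, Rasl11b, Zfp39, Zfp799 and Zfp472 had mean AML12 actinomycin D ratios below -4, at which the size of a fall is uncertain. Hsd3b4, at 3.77, and Ivl, at 3.56, fell in AML12 and rose in Hepa 1-6. Cyp3a44 differed by 3.59 with an adjusted p of 0.043, a call lost when any of several single arrays was left out.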

How the results depend on the processing

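The numbers of genes higher and lower in AML12 stayed within 1.5 times their values under both centrings, quantile normalization, the other feature rules, a robust prior, smaller fits and each left-out array. With 1 array left out, 3679 to 4650 rose and 3475 to 4234 fell. Centring on the median over features gave 5848 higher and 3417 lower, and over genes 5348 and 3755. The planned centring did not name which median, and that over features was chosen for it after both counts were seen. Requiring a 2-fold change left 775 higher and 1238 lower, 2013 in all, and testing each of 35664 features gave 10201 and 9287, 19488 in all. The line difference of 2853 higher and 2119 lower responses became 901 and 450 (1351 in all) at 2-fold, 1533 and 1038 (2571) at an adjusted p under 0.01, and 5576 and 4969 (10545) over features. The series design names no pairing by replicate number. Correlations of deviations ran from -0.048 to 0.159, the highest for AML12 control and actinomycin D, so these values do not show that pairing was absent. With a replicate block shared by all groups 4563 genes rose and 4173 fell, and the line difference had 2664 and 1957. The 846 lost features became 2142 when 1 missing treated ratio was enough and 493 when both prolactin arrays also had to hold a ratio. With 1 array left out they ranged from 1193 to 1795, with 1387 without the second control and 1795 without the first actinomycin D array. Of 262 genes named or allowed by the naming rule, 37 lost the call under at least 1 of up to 24 alternatives, Tnip3 under 14. A turn of sign was not counted as a lost call. The other 225 can therefore not be taken as passing in the same direction under every alternative. With the feature of highest ratio per gene, the sign turned for Arhgef17 (-0.09), Bmf (0.22), Farsa (0.15), Hspa4 (0.17), Med13l (0.37), Pabpc1 (0.28), Psmd4 (0.14), Psme4 (0.48), Rpl11 (0.06), Rps13 (0.09) and Uqcrq (0.09), as their features disagree, and with quantile normalization it turned for Ppara (-0.17). Leaving out the 20% of genes with the lowest ratios lowered list counts because fewer members were tested. List medians near 0, such as those of ribosomal protein, translation factor and oxidative phosphorylation genes, changed sign with the scaling.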

Other observations

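Some genes that fell with actinomycin D were also below the AML12 controls on the prolactin arrays, and both treatments are set against the same 2 control arrays, so the values are given side by side only. Klf15, a liver transcription factor gene known to be induced by glucocorticoids, was at 3.81 and 3.73 in controls. On the prolactin arrays it was at 2.37 and 2.20, and on the actinomycin D arrays at 2.31 and 2.17. Ddit4, the mTOR inhibitor gene, was at -0.83 and -1.03 without an agent, at -1.78 and -1.52 on the prolactin arrays and at -3.69 and -3.65 on the actinomycin D arrays. Hes1, Sertad1 and Med26, which fell with actinomycin D, lay within 0.5 log2 units of the nearer control on both prolactin arrays. These genes were picked after their values were seen.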
